A study of Mus musculus with 5 samples.

Results

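A set of 10 transcription factor genes that act in the epidermal lineage were followed through messenger RNA sequencing of mouse back skin keratinocytes: Trp63, Klf4, Klf5, Grhl1, Grhl2, Grhl3, Ovol1, Tfap2a, Ehf and Prdm1. They were taken by symbol from the deposited table, and all 10 were found among its 56691 gene IDs. The tested libraries are cells of mice aged 28 days sorted for GFP and labelled Lrig1 positive keratinocytes (GFP replicates 1, 2 and 3, genotype given as Lrig1 positive, cell type given as epidermal stem cells). They are set against the whole population without that sort, labelled basal keratinocytes of wild-type genotype (bulk replicates 1 and 2). The sources used here name no strain, no construct that carries GFP, no promoter that drives it and no sorting gates. Libraries 1 of each group share the title number 4143 and libraries 2 share 4145, while GFP replicate 3 has 4146; the labelled genotypes differ within a number.

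Stratified epidermis is built by factors that first set surface ectoderm apart and then move cells from the basal layer towards the cornified surface. p63, the product of Trp63, maintains the proliferating basal compartment, and AP-2 alpha (Tfap2a) works with it early in the ectoderm. The Grainyhead-like, Krüppel-like, Ets and Ovo-like factors act on junction, barrier and growth genes, and PRDM1 is a repressor of late stages. Lrig1 encodes a membrane protein that restrains EGF family receptors and is known as a stem cell marker of the follicle's upper region.

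Libraries held 56829330 to 105887450 counts, and the 10 genes together took 0.379 to 0.564 percent of them. Levels are in CPM, counts divided by a library size scaled with the trimmed mean method (TMM). Lrig1 was at 209.8, 226 and 213 CPM in GFP replicates 1, 2 and 3, against 163 and 155 CPM in bulk replicates 1 and 2, a log2 difference of 0.44 ± 0.18 (SE) that edgeR did not call (adjusted p = 0.292; 0.00676 with the title numbers as a replicate block). Xist, abundant in female cells, had 53714 counts in GFP replicate 3 and at most 8 in any other library. The Y-linked gene Ddx3y had 62 counts in GFP replicate 3 and 1750 to 4462 in the others. The labels give no sex, but by these counts GFP replicate 3 was female and the others male. No bulk library thus matched GFP replicate 3 in sex, and the part of sex in the values was not tested. A list of 12 basal keratinocyte markers summed to 36080 to 44480 CPM in GFP libraries and to 23300 and 26540 CPM in bulk. Of the 12, edgeR and limma-voom called 0, DESeq2 called 2 higher and 5 had an unadjusted edgeR p under 0.05. A list of 10 upper follicle markers, with Lrig1, summed to 11530, 9751 and 7063 CPM in GFP replicates 1, 2 and 3. It summed to 6358 and 6697 CPM in bulk, and edgeR called 0 of the 10. That block gave 8 higher in each of these 2 lists, and 16.4 percent of all tested genes. A list of 18 suprabasal markers summed to 10090 to 13690 CPM in GFP and to 25650 and 19820 CPM in bulk, and 10 of the 18 were called lower in GFP cells. Markers of hair matrix and inner root sheath summed to 64.23 to 68.77 CPM in GFP and to 1746 and 3322 CPM in bulk (15 of 15 tested lower), and Langerhans and myeloid markers to 22.42 to 59.61 CPM against 361.7 and 365.8 CPM (11 of 11 lower). T cell markers (10 of 10) and melanocyte markers (7 of 8) were also lower in GFP cells. No marker of these lists was without counts in all GFP libraries. In such mixed populations fewer cells of a type and less RNA per cell cannot be told apart. The part of these shifts in the values of the 10 genes was not tested.

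None of the 10 genes was called between GFP and bulk cells when all libraries were treated as independent, also those that share a title number. All 10 passed the filter on low counts, and edgeR called 0 higher and 0 lower at an adjusted p under 0.05, where it called 0.145 percent of 18583 tested genes higher and 5.14 percent lower. At an unadjusted p under 0.05 there were 2, Ovol1 and Grhl1, and the DESeq2 Wald test and limma-voom called 0 each. The median log2 change of the 10 was 0.21, against 0.05 over all tested genes. In 3 genes (Klf4, Grhl2 and Ehf) every GFP library lay above both bulk libraries, as in 14.6 percent of all tested genes. In 1 gene (Grhl1) every GFP library lay below both, as in 18.5 percent. The remaining 6 overlapped between groups. The title numbers were also fitted as a replicate block, on the assumption, not stated in the labels, that they name animals. The block rests on 2 pairs, leaves 1 residual degree of freedom and draws nothing from GFP replicate 3. Its SE and p-values therefore rest largely on a spread shared across genes, and less on the difference between the 2 pairs of a gene. With it Ovol1, Ehf and Klf4 rose and Grhl1 fell, while 16.4 percent of all tested genes were called higher and 19.7 percent lower. The same 4 genes were called with the block when a trend of each library on gene length and GC content was also removed, a fit that called 15.8 percent of genes higher and 16.9 percent lower. With so few genes, 3 of 10 and 1 of 10 are not far from those shares, and nothing particular to the 10 is read from them.

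**Figure D1:**
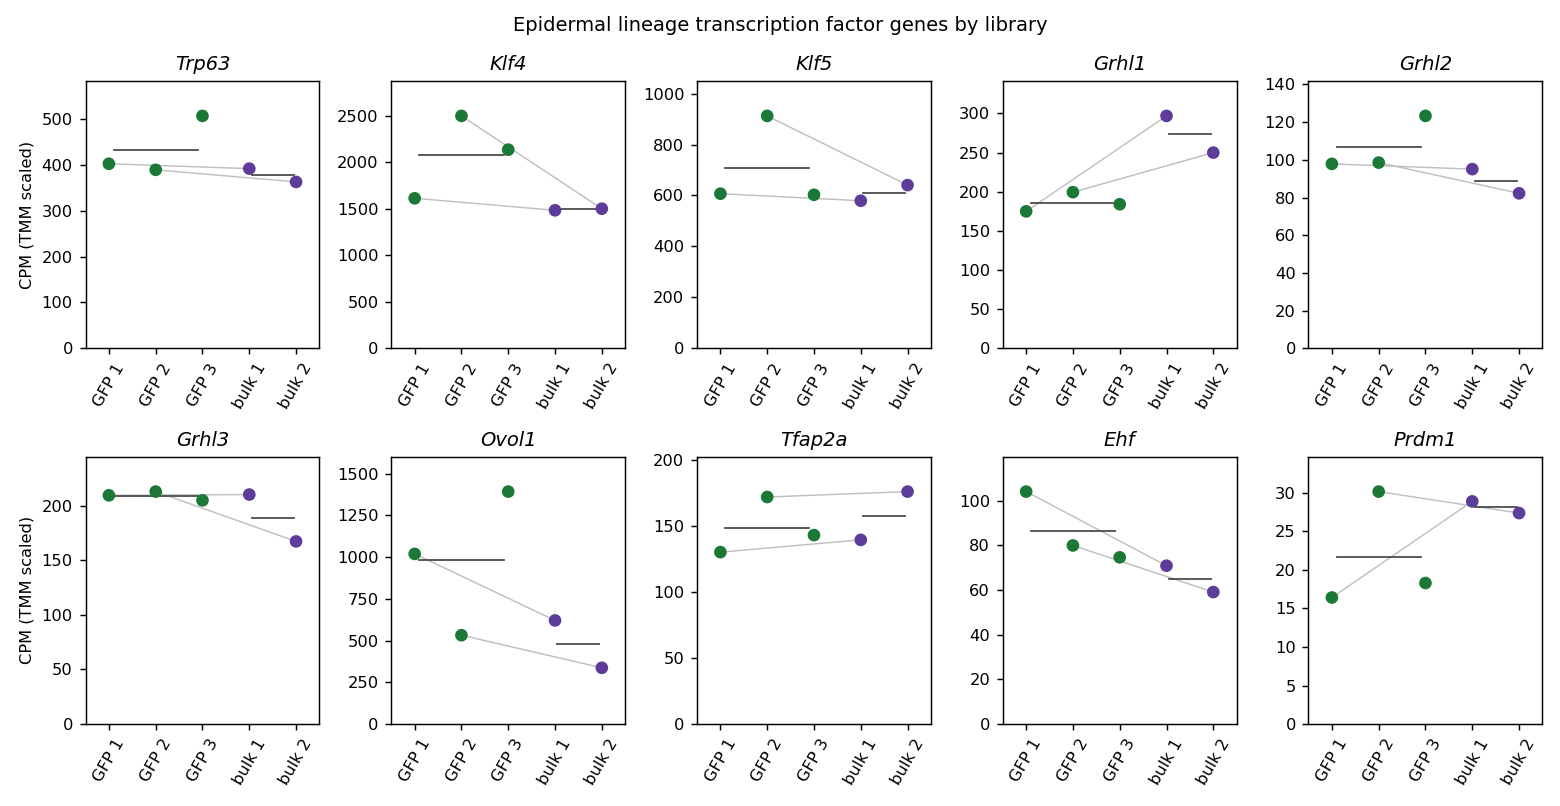
CPM (y axis, TMM scaled, from 0) of each of the 10 genes in GFP replicates 1 to 3 (green) and bulk replicates 1 and 2 (purple); short lines are group means and grey lines join libraries of the same title number. Grhl1 is the gene whose 3 GFP libraries, at 175 to 199 CPM, all sit below both bulk libraries, and the GFP libraries of Ovol1 run from 532 to 1392 CPM.

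Trp63 (ENSMUSG00000022510.15), which encodes p63, was not called between the populations without or with the block. It was at 402, 389 and 506 CPM in GFP replicates 1, 2 and 3, against 391.5 and 363 CPM in bulk replicates 1 and 2. GFP replicate 3 was the high library, and GFP replicate 2 lay below bulk replicate 1, so the groups overlapped. Its log2 change was 0.20 ± 0.22 (edgeR adjusted p = 0.72), and 0.07 ± 0.15 with the block (adjusted p = 0.759). Over 19 alternatives the log2 change ran from 0.06 to 0.43. Trp63 was called in 1, edgeR with the block and a length and GC trend taken out with no centring (adjusted p = 0.0215). GFP over bulk was 1.03-fold for number 4143 and 1.07-fold for 4145. Counts per gene do not separate the full-length and the N-terminally truncated p63 products, of which the truncated form is the main one of the basal layer.

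Tfap2a (ENSMUSG00000021359.17) encodes AP-2 alpha, a factor of surface ectoderm and neural crest that binds GC-rich sites. It was at 130.3, 172 and 143 CPM in GFP replicates 1, 2 and 3 and at 139.6 and 176 CPM in bulk replicates 1 and 2. Libraries of number 4145 were the high ones in each group. edgeR put the log2 change at -0.09 ± 0.21 (adjusted p = 0.88; 0.76 with the block), and GFP over bulk was 0.934-fold and 0.977-fold in the number-matched pairs. Exons of 3 genes on the opposite strand overlap those of Tfap2a in the annotation used, with 134 to 582 counts over the 5 libraries against 63056 of Tfap2a.

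Klf4 (ENSMUSG00000003032.9) encodes a zinc finger factor of differentiating cells that is needed for the skin barrier. It was the most abundant of the 10 per length in both groups. Klf4 was at 1613, 2499 and 2136 CPM in GFP replicates 1, 2 and 3, against 1484 and 1501 CPM in bulk replicates 1 and 2. All GFP libraries were above bulk, but GFP replicate 1 exceeded bulk replicate 1 only 1.09-fold, while the ratio was 1.66 for number 4145. edgeR put the log2 change at 0.48 ± 0.28 (adjusted p = 0.479). With the block Klf4 rose by 0.43 ± 0.17 (adjusted p = 0.0347, in a range of 0.00488 to 0.998 over 19 alternatives).

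Klf5 (ENSMUSG00000005148.9) encodes a related factor linked to proliferating cells of several epithelia. It was at 607, 912 and 603 CPM in GFP replicates 1, 2 and 3 and at 579 and 641 CPM in bulk replicates 1 and 2. GFP replicate 2, the library with the highest Klf4, alone stood above both bulk libraries. Its log2 change was 0.21 ± 0.27 (edgeR adjusted p = 0.751; 0.136 with the block) and -0.01 without GFP replicate 2. Within a library the ratio of Klf4 to Klf5 does not depend on library scaling. Per length its log2 value was 1.56, 1.60 and 1.97 in GFP replicates 1, 2 and 3, against 1.504 and 1.37 in bulk replicates 1 and 2. The GFP values lay above bulk by 0.27 on average, and by 0.14 without GFP replicate 3.

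Of the 3 Grainyhead-like genes, Grhl1 fell with the block, and Grhl2 and Grhl3 were not called with it. Grhl1 (ENSMUSG00000020656.17), whose product acts on the desmosomal cadherin gene Dsg1 and on hair anchorage, was at 175, 199 and 184 CPM in GFP replicates 1, 2 and 3. It was at 297 and 249.9 CPM in bulk replicates 1 and 2. The GFP libraries were close to each other and all below bulk, with ratios of 0.589 for number 4143 and 0.798 for 4145. Its log2 change was -0.55 ± 0.19 (edgeR adjusted p = 0.196), and with the block Grhl1 fell by 0.54 ± 0.14 (adjusted p = 9.82e-04, in a range of 5.04e-04 to 0.57 over 19 alternatives). That call ended (-0.31, adjusted p = 0.0703) where the trend on length and GC was taken out with no centring, an alternative added after the data were seen, where all tested genes had a median change of 0.26 (log2), compared with 0.05 in the fit with neither block nor trend.

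Grhl2 (ENSMUSG00000022286.17), a factor for E-cadherin and other junction genes, was at 97.8, 98.5 and 123 CPM in GFP replicates 1, 2 and 3, against 95.1 and 82.2 CPM in bulk replicates 1 and 2. All GFP libraries were above bulk by small steps, GFP replicate 1 by 1.03-fold over bulk replicate 1. edgeR gave a log2 change of 0.27 ± 0.20 (adjusted p = 0.577; 0.43 with the block). An opposite-strand gene, Gm16136, overlaps its exons and had 12877 counts over the 5 libraries against 40622 of Grhl2. Strandedness of the counting is not given, so reads of the overlap cannot be assigned to either gene.

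Grhl3 (ENSMUSG00000037188.8), needed for barrier formation and wound closure, was at 209, 213 and 205 CPM in GFP replicates 1, 2 and 3, the narrowest range of the 10 in GFP cells. It was at 210.1 and 167 CPM in bulk replicates 1 and 2. Bulk replicate 1 was level with the GFP libraries and bulk replicate 2 was lower. Its log2 change was 0.15 ± 0.20 (edgeR adjusted p = 0.765; 0.369 with the block), or -0.02 without bulk replicate 2. Set against Grhl2 in the same library and per length, Grhl1 had log2 ratios of 1.35, 1.53 and 1.09 in GFP replicates 1, 2 and 3, against 2.15 and 2.12 in bulk replicates 1 and 2. The lowest bulk value exceeded the highest GFP value, and the difference of means was -0.81 (-0.92 to -0.70 when each library was left out). For Grhl3 over Grhl2 the values were 1.92, 1.94 and 1.56 in GFP replicates and 1.97 and 1.85 in bulk replicates, which overlapped. These ratios were not tested, and reads of Gm16136 may enter their denominator.

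**Figure D2:**
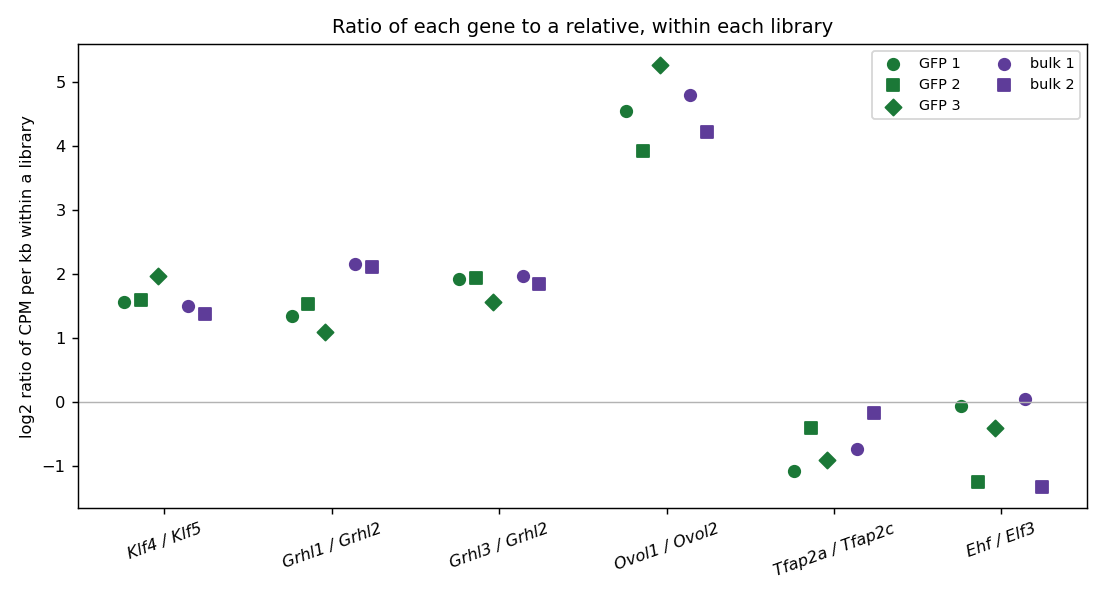
Log2 ratio, within each library, of a gene to a relative, both as CPM per kb of the longest annotated transcript (y axis), for GFP replicates 1 to 3 (green) and bulk replicates 1 and 2 (purple); marker shape gives the replicate number. Grhl1 over Grhl2 separates the groups, with GFP libraries at 1.09 to 1.53 and bulk libraries at 2.12 and 2.15.

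Promoter entries existed for 5 of the 10 genes (Klf4, Grhl1, Grhl3, Tfap2a and Prdm1) in a RefSeq table on GRCm38.p6, and not for Trp63, Klf5, Grhl2, Ovol1 and Ehf. The 250 bases before the start are shown for Klf4, called higher with the block, Grhl1, called lower with it, and Grhl3, which was not called, 5′ to 3′ on the strand of the gene. Capitals mark matches on either strand to CCNCNCCC, a Krüppel-like factor box, with overlapping matches merged. Klf4 lies at chr4:55532476-55532725 (minus strand), the first of 2 listed Grhl1 starts at chr12:24572037-24572286 (plus strand) and Grhl3 at chr4:135573633-135573882 (minus strand).
Klf4: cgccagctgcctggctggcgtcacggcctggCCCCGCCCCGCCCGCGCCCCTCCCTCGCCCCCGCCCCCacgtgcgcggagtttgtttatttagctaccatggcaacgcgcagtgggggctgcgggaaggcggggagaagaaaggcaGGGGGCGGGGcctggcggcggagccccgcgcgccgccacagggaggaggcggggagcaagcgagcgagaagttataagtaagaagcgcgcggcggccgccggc
Grhl1: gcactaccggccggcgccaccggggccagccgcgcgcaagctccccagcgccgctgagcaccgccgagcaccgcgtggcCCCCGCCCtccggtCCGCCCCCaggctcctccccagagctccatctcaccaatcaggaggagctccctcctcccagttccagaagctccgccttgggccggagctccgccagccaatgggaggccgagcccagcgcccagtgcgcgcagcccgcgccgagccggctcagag
Grhl3: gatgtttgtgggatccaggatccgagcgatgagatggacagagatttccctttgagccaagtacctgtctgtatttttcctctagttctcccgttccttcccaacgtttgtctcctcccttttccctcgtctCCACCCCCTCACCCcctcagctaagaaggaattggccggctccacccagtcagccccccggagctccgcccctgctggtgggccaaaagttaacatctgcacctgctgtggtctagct
The box matched at 9 positions before Klf4, the nearest ending 93 bases from the start, at 2 before Grhl1 and at 2 before Grhl3. It also matched at 1 position before Prdm1 and at 4 before the second Tfap2a start, and at 0 before the first Tfap2a and the second Grhl1 start. Of 32851 promoters of the same length 45.9 percent hold it. GC content was 74.0 percent before Klf4, 75.6 percent before the first Grhl1 start and 56.0 percent before Grhl3, against a median of 52.4 percent. The AP-2 motif GCCNNNGGC was found once before Klf4 and once before the first Grhl1 start, and 13.7 percent of promoters hold it. No match was found before these starts for the Grainyhead motif AACCGGTT (0.116 percent of promoters), the Ets motif CCGGAAGT (2.88 percent), the Ovol motif CCGTTA (2.18 percent) or the PRDM1 motif AGNGAAAG (7.30 percent). A match is a run of letters and not a bound site, and the start used in these cells is not known from the counts.

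Ovol1 had the largest fitted log2 change of the 10 without a block, and its highest GFP library was 2.62 times its lowest, the largest such ratio of the 10. Ovol1 (ENSMUSG00000024922.3) encodes a zinc finger repressor that restrains growth of epidermal progenitors and, with Ovol2, keeps epithelial identity. It was at 1019, 532 and 1392 CPM in GFP replicates 1, 2 and 3, against 620.4 and 337 CPM in bulk replicates 1 and 2. GFP replicate 2 was below bulk replicate 1, so the groups overlapped, although each GFP library was above the bulk library of its number. The ratio was 1.64 for number 4143 and 1.58 for 4145. Without a block the log2 change was 1.04 ± 0.44 (edgeR adjusted p = 0.307), and with the block Ovol1 rose by 0.69 ± 0.16 (adjusted p = 9.36e-05). The unblocked value was 0.69 without GFP replicate 3, 0.65 without bulk replicate 2 and 1.54 without bulk replicate 1. With no filter on low counts it was called without a block (1.03, edgeR adjusted p = 0.00693), while adjusted p ran from 3.46e-05 to 0.998 over 19 alternatives and from 0.121 to 0.998 when each library was left out.

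Ovol2, the relative of Ovol1, was at 22.7, 18.2 and 18.8 CPM in GFP replicates 1, 2 and 3 and at 11.6 and 9.38 CPM in bulk replicates 1 and 2. Every GFP library was above both bulk libraries. Its log2 change of 0.92 ± 0.22 missed the threshold in edgeR (adjusted p = 0.0557), and it was called with the block (5.22e-08), by DESeq2 (0.0031) and by limma-voom (0.0484), with a range of 5.22e-08 to 0.523 over 19 alternatives. Per length Ovol1 exceeded Ovol2 by 4.55, 3.93 and 5.27 on the log2 scale in GFP replicates 1, 2 and 3, and by 4.80 and 4.22 in bulk replicates 1 and 2. These ratios overlapped between the groups.

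Ehf (ENSMUSG00000012350.16) encodes an Ets factor restricted to epithelia and tied to keratinocyte differentiation. It was at 104, 79.98 and 74.7 CPM in GFP replicates 1, 2 and 3, against 70.9 and 59.1 CPM in bulk replicates 1 and 2. All GFP libraries were above bulk, and the number-matched ratios were 1.47 and 1.35. In edgeR the log2 change was 0.41 ± 0.21 (adjusted p = 0.423), and with the block Ehf rose by 0.50 ± 0.14 (adjusted p = 0.00233, in a range of 3.05e-05 to 0.998 over 19 alternatives). Set per length against Elf3, another epithelial Ets factor, its log2 ratio was -0.06, -1.26 and -0.40 in GFP replicates 1, 2 and 3, against 0.05 and -1.34 in bulk replicates 1 and 2. Both libraries of number 4145 were low and both of 4143 were near 0, in GFP and in bulk cells alike.

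Prdm1 (ENSMUSG00000038151.14) encodes a repressor found in the granular layer, in sebaceous gland cells and in plasma and T cells. It was the least abundant of the 10, at 16.4, 30.2 and 18.3 CPM in GFP replicates 1, 2 and 3, against 28.9 and 27.4 CPM in bulk replicates 1 and 2. GFP replicate 2 was the highest library of all, and the other GFP libraries were the lowest. The number-matched pairs went opposite ways, with GFP over bulk at 0.568 for 4143 and 1.10 for 4145. The fitted log2 change was -0.38 ± 0.28 (edgeR adjusted p = 0.573; 0.0805 with the block). The 10 T cell markers summed to 20.06, 12.13 and 16.59 CPM in GFP replicates 1, 2 and 3 and to 182.4 and 165.3 CPM in bulk replicates 1 and 2. The 12 sebocyte markers summed to 565.1, 754.9 and 544.5 CPM in GFP and to 1082 and 1245 CPM in bulk (4 of 12 lower). Most of each sum came from the lipid genes Fasn and Scd1. Plin2, Awat2 and Pparg had log2 changes of 0.25, 0.26 and 0.33, not called without a block. With the block 8 of the 12 fell and 1 rose (19.7 and 16.4 percent of all tested genes). The part of T cells and sebocytes in the Prdm1 values was not tested. Against the gene of its relative AP-2 gamma, Tfap2a over Tfap2c was, per length, -1.07, -0.40 and -0.91 on the log2 scale in GFP replicates and -0.73 and -0.18 in bulk replicates, with overlap.

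**Figure D3:**
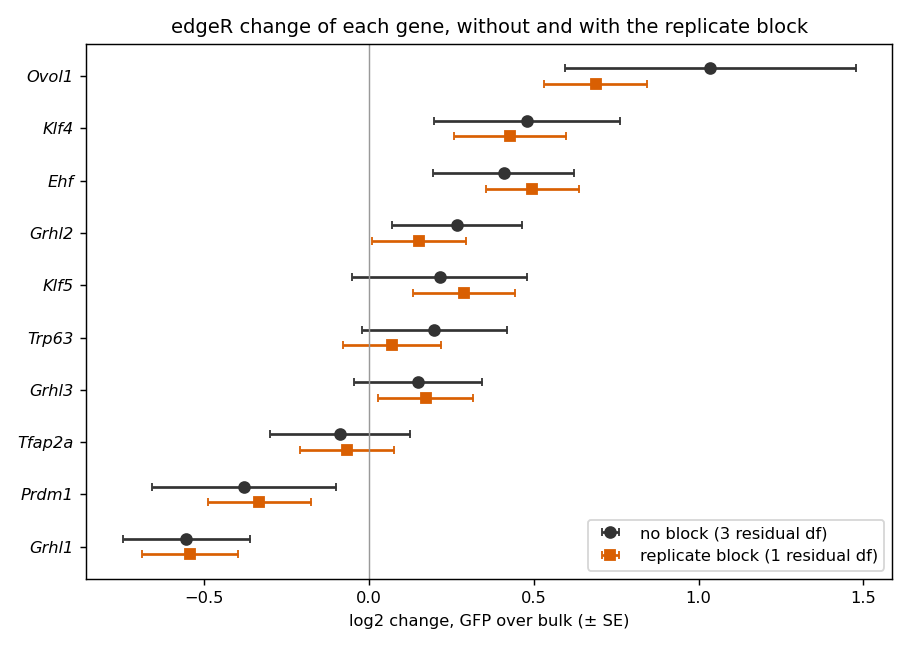
Log2 change, GFP over bulk (x axis, edgeR estimate ± SE), of each gene without a block (circles) and with the replicate block (squares). Ovol1 shows the largest difference between the estimates, 1.04 without and 0.69 with the block, and Grhl1 is the lowest in both.

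Divided by the length of the longest annotated transcript, mean levels in GFP cells ran from Klf4 at 687 ± 147 CPM per kb (SD, n = 3) through Ovol1 at 330.0 ± 145 and Klf5 at 211 ± 53.0. Trp63 followed at 80.6 ± 12, Grhl3 at 74.9 ± 1.44, Grhl1 at 53.7 ± 3.58, Tfap2a at 42.6 ± 6.14, Grhl2 at 21.6 ± 2.94, Ehf at 19.3 ± 3.52 and Prdm1 at 4.10 ± 1.41. Neighbours whose GFP libraries overlapped were Ovol1 and Klf5, Trp63 and Grhl3, and Grhl2 and Ehf. In bulk cells the order was Klf4 at 493 ± 3.97 CPM per kb (SD, n = 2), Klf5 at 182 ± 13.0, Ovol1 at 161 ± 67.5, Grhl1 at 78.8 ± 9.57, Trp63 at 70.3 ± 3.82 and Grhl3 at 67.6 ± 10.9. Tfap2a at 45.3 ± 7.44, Grhl2 at 17.9 ± 1.83, Ehf at 14.6 ± 1.87 and Prdm1 at 5.33 ± 0.203 closed it. Bulk libraries of Klf5 and Ovol1, of Grhl1 and Trp63, and of Trp63 and Grhl3 overlapped. Grhl1 ranked 6 in GFP and 4 in bulk cells, next to Trp63 in bulk, with which it overlapped there. The true transcript lengths in these cells are not known.

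Among 26 tested relatives from the same families, edgeR called 0, DESeq2 and limma-voom called 1 higher each, and 3 had an unadjusted p under 0.05. With the block 7 rose and 2 fell (16.4 and 19.7 percent of all tested genes), and the list median was 0.15. Besides Ovol2, the smallest p-values belonged to Klf9 and Klf10, Krüppel-like genes that respond to glucocorticoid and to TGF-beta, and to Tfcp2, a distant Grainyhead relative. Klf9 averaged 255 ± 111 CPM in GFP and 141 ± 4.93 CPM in bulk (SD, n = 3 and 2), Klf10 153 ± 14.2 and 104 ± 29.6 CPM, and Tfcp2 8.30 ± 0.459 and 11.5 ± 0.411 CPM. GFP replicate 3, at 382.5 CPM, was the high library of Klf9. Without a block edgeR gave these 3 an adjusted p of 0.27 to 0.325, and with it 0.0109, 0.00206 and 0.0236.

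Of 20 late differentiation genes linked to Klf4 and Prdm1, 11 fell and none rose (median log2 change -1.23), and 20 fell with the block. Lor and Hrnr, of the cornified envelope and the granular layer, were at 5.66 ± 0.534 and 0.0956 ± 0.0936 CPM in GFP, against 235 ± 72.8 and 20.9 ± 6.36 CPM in bulk. Cdsn and Flg2, which serve corneodesmosomes and the cornified layer, were at 16.04 ± 5.62 and 0.436 ± 0.389 CPM in GFP, against 215 ± 35.9 and 54.5 ± 9.501 CPM in bulk. The edgeR adjusted p of the 4 ran from 5.3e-05 to 6.75e-04. Of this list 16 genes are also among the 18 suprabasal markers given above, so its fall is not a separate result.

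Of 12 genes linked to Grainyhead-like factors, 3 fell and none rose (median -0.20). With the block 5 fell and 2 rose, against 19.7 and 16.4 percent of all tested genes. The transglutaminase gene Tgm1, a known GRHL3 target, was at 14.99 ± 1.80 CPM in GFP and 56.5 ± 1.01 CPM in bulk, and fell by a log2 value of 1.91 ± 0.19 (edgeR adjusted p = 0.00104). Tgm3 fell by 1.21 ± 0.22 (adjusted p = 0.0169) and the desmoglein gene Dsg1b by 1.02 ± 0.21 (adjusted p = 0.03). Tgm3 was not called without GFP replicate 2 or bulk replicate 2 (adjusted p = 0.0584 and 0.166). Dsg1b was called with GFP replicate 3 left out but not without GFP replicate 1, GFP replicate 2, bulk replicate 1 or bulk replicate 2 (0.0731, 0.0884, 0.176 and 0.142). Its near copy Dsg1a averaged 402 ± 110.2 CPM in GFP and 718 ± 93.6 CPM in bulk (adjusted p = 0.161; 5.56e-11 with the block), and reads shared by the copies could be split in counting. Without GFP replicate 2, and likewise without bulk replicate 2, 1 gene of this list was called lower. Tgm1 and Tgm3 are also late differentiation genes of the list before.

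Of 20 genes of the basal layer linked to p63, edgeR called 0, and 6 had an unadjusted p under 0.05. DESeq2 called 3 higher and 1 lower, limma-voom 0, and the block gave 8 higher and 2 lower, or 12 and 0 with the trend also removed. Over all tested genes the block gave 16.4 percent higher and 19.7 percent lower, or 15.8 and 16.9 percent with that trend removed. The list median was 0.40. Krt14, a basal keratin, averaged 11180 ± 1771 CPM in GFP and 5874 ± 598 CPM in bulk. Lamb3, a laminin gene of the basement membrane, averaged 497 ± 25.7 CPM in GFP and 316 ± 28.9 CPM in bulk. Fras1, an extracellular matrix gene, was at 2.18 ± 0.328 CPM in GFP and 5.02 ± 2.23 CPM in bulk. Their edgeR adjusted p ran from 0.11 to 0.202, and Krt14, Lamb3 and Fras1 were each called with the block. Fras1 lost that call when the length and GC trend was also removed (log2 change -0.45, adjusted p = 0.0866, against -1.02 with the block alone). Of this list 9 genes are also among the basal markers given above.

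Of 8 mesenchymal genes that Ovol and Grainyhead-like factors oppose, 6 passed the filter and 3 fell (median -3.01), with 1 higher and 4 lower under the block. All 8 summed to 34.94, 33.89 and 32.09 CPM in GFP replicates 1, 2 and 3. In bulk replicates 1 and 2 the sums were 90.08 and 73.21 CPM. The genes named below, taken by smallest p, all had lower means in GFP but made up little of the GFP sums. Most of the GFP sums came from genes of the list not named here, which include the 1 higher under the block. The list was thus not absent from GFP cells, and the fall of the named genes does not stand for all of it. Vim, an intermediate filament gene of mesenchymal and immune cells, was at 5.48 ± 1.35 CPM in GFP and 58.8 ± 9.45 CPM in bulk (edgeR adjusted p = 3.34e-04). The repressor genes Zeb1 and Zeb2 were at 0.0547 ± 0.0361 and 0.114 ± 0.0744 CPM in GFP, against 1.51 ± 0.223 and 1.19 ± 0.0137 CPM in bulk. Zeb2 was not called without bulk replicate 1 or bulk replicate 2 (adjusted p = 0.0585 and 0.0655). Twist1 was at 0.0747 ± 0.0439 CPM in GFP and 0.476 ± 0.152 CPM in bulk (adjusted p = 0.0519; 1.17e-05 with the block). Fibroblast markers summed to 193.9, 58.94 and 29.77 CPM in GFP replicates 1, 2 and 3 and to 219.6 and 185.4 CPM in bulk replicates 1 and 2, and immune and melanocyte markers were lower as given above. Their part in the fall of these genes was not tested.

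Among 32 other epidermal and follicle transcription factor genes, 6 fell and none rose (median 0.03). With the block 9 fell and 6 rose, beside 19.7 and 16.4 percent of all tested genes. Lef1, a Wnt effector, was at 0.243 ± 0.0682 CPM in GFP and 12.7 ± 5.83 CPM in bulk, and Dlx3, a homeobox gene of hair and suprabasal cells, at 10.4 ± 0.614 and 96.9 ± 49.5 CPM. Hoxc13 and Msx2, homeobox genes of the hair matrix, were at 6.71 ± 0.663 and 6.61 ± 0.261 CPM in GFP, against 26.5 ± 0.115 and 21.7 ± 7.26 CPM in bulk. Their edgeR adjusted p ran from 3.14e-04 to 0.00625. Msx2 was not called without bulk replicate 2 (adjusted p = 0.0642), where 3 genes of the list fell, and Lef1, Hoxc13 and Msx2 are also among the hair matrix markers given above. Of 10 growth and cell cycle genes linked to Ovol1, Klf4 and Prdm1, 0 were called by edgeR, DESeq2 or limma-voom. At an unadjusted edgeR p under 0.05 there were 2, and the list median was 0.30. The block gave 4 higher and 1 lower. Myc averaged 748 ± 206 CPM in GFP and 507 ± 32.0 CPM in bulk, Pcna 116 ± 20.1 and 72.0 ± 24.9 CPM, Id3 264 ± 39.0 and 169 ± 18.5 CPM, and Ccnd1 83.1 ± 15.2 and 65.6 ± 12.4 CPM. Pcna, Id3 and Ccnd1 were called higher with the block and Myc was not (adjusted p = 0.0997). Mki67, of cycling cells, the gene called lower with the block and singled out after its values were seen, was at 56.1, 45.6 and 193 CPM in GFP replicates 1, 2 and 3 and at 85.8 and 128 CPM in bulk replicates 1 and 2, so GFP replicate 3, the highest for Ovol1, was also the highest for it.

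**Figure D4:**
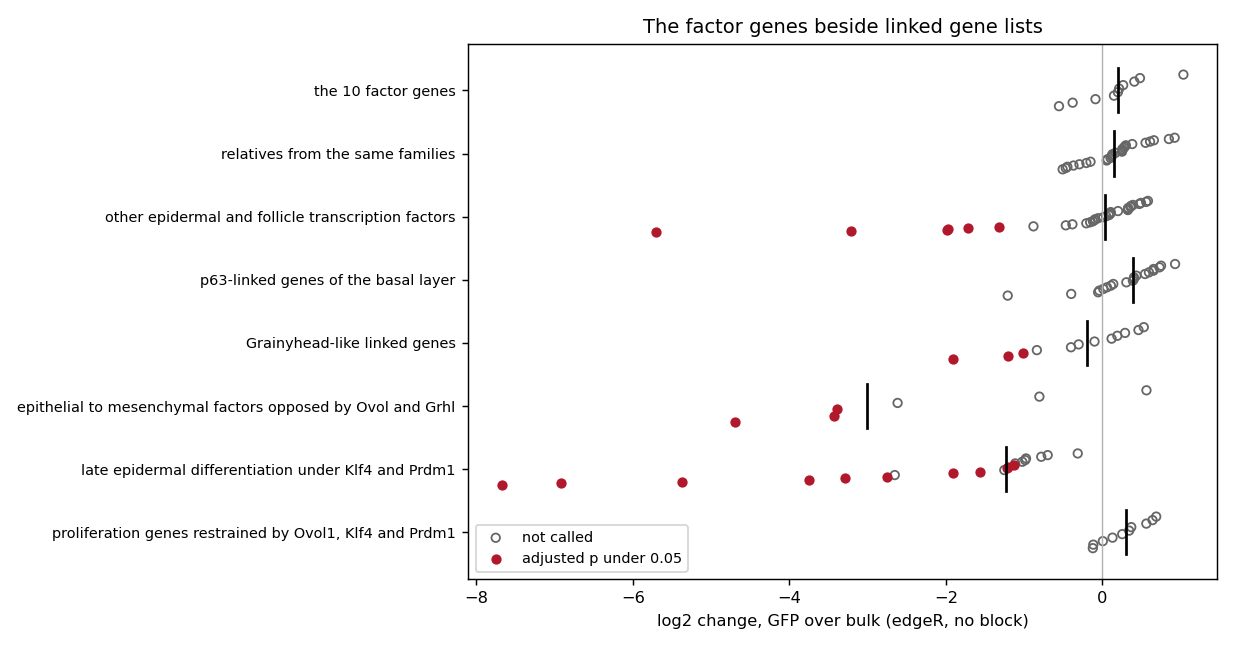
Log2 change, GFP over bulk (x axis, edgeR without a block), of the 10 factor genes and of 7 lists of related genes, 1 point per tested gene; filled points passed an adjusted p under 0.05 and bars are medians. The 10 factor genes lie between -0.55 and 1.04 with 0 called, while 11 of 20 late differentiation genes were called lower.

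The genes whose levels ran most like those of Ovol1 over the 5 libraries, by root mean square distance of centred log2 CPM among 8867 genes, were Hmmr (0.18), Nusap1 (0.18) and Zfp747 (0.20). Hmmr was at 20.1, 14.5 and 27.98 CPM in GFP replicates 1, 2 and 3, against 12.6 and 6.82 CPM in bulk replicates 1 and 2. Hmmr and Nusap1 encode spindle proteins of dividing cells. For Grhl1 they were Scamp1 (0.03), Tmem170 (0.05) and Ank3 (0.05), and Scamp1 was at 65.0, 71.9 and 65.9 CPM in GFP and at 111 and 90.0 CPM in bulk. These are descriptions of 5 libraries and were not tested.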

How the data were processed

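The deposited table holds raw whole-number counts for each mouse Ensembl gene in each library. STAR and the build GRCm39 are named, per the submitters' processing notes. For version, counting tool, annotation and strandedness the entry is: not given in the sources used here. Symbols came from GENCODE M21 (GRCm38) by gene ID, with 52073 of 56691 IDs matched, so no gene coordinates are given. Promoter sequences are RefSeq's, on GRCm38.p6.

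Counts were tested across all genes with edgeR 4.0.16 in R 4.3.3 (filterByExpr with a minimum count of 10 and total of 15, TMM, group term, quasi-likelihood test, two-sided, Benjamini-Hochberg over 18583 genes, threshold 0.05; 3 residual degrees of freedom). DESeq2 1.42.0, limma 3.58.1, other scalings and filters, a replicate block, a loess trend (span 0.3) on transcript length and GC content, and leaving out each library were alternatives. The p-values measure the spread between these libraries, moderated by a spread shared across genes. The labels do not say that the libraries came from separate animals, and no molecular identifiers are named for the counts. With the block, which leaves 1 residual degree of freedom, the SE rests largely on the shared spread. Number-matched log2 differences were -0.82 and 0.14 for Prdm1 and 0.12 and 0.73 for Klf4, while the block gave an SE of 0.16 and 0.17. Replicates of a group differed beyond counting noise (chi-square 147.4 to 442.6 per degree of freedom).

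The title numbers shared by bulk and GFP libraries were taken to pair them as animals. Across genes the difference of GFP replicates 1 and 2 correlated with that of bulk replicates 1 and 2 (Pearson r = 0.444, genes not being independent). The members and the gene lists were chosen with earlier results of these data known. Named genes are the 10 members, Lrig1, up to 4 genes of each list with the smallest p, called relatives, and the 3 genes most like the member with the largest rise and the largest fall (among genes averaging 3 or more in log2 CPM, without predicted models). A gene that this rule names is not reported here.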

Additional observations from a re-analysis of the deposited data

How the results depend on the processing

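The counts of the 10 genes called, 0 higher and 0 lower, held under every scaling, test and filter run except 1, and without each library in turn. With no filter on low counts 1 was higher (Ovol1), and 258 of all genes were higher and 1660 lower, against 27 and 955. With the replicate block 3 members were higher and 1 lower, and 3040 and 3652 of all genes. When a trend on length and GC was removed as well there were 3 and 1 members and 2860 and 3066 genes. Chosen after seeing the data, the same trend without centring gave 7 members higher and 0 lower with the block, and 6273 and 2070 of all genes; without the block it gave 396 genes higher. There the median change of all genes lay 0.21 with the block, and 0.22 without it, above that of the fit with neither block nor trend, and these calls stand beside that shift. All-gene counts higher were 10 with library size alone, where the median fell by 0.12, 188 by DESeq2 and 70 with the centred trend. Leaving out each library gave 1 to 96 genes higher and 479 to 1109 lower. The cause of these moves was not tested. Without bulk replicate 1 or bulk replicate 2 the lone bulk library is assumed to vary like the others.

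Among the 10 genes not called without a block, the sign of the change turned for Klf5 without GFP replicate 2, for Grhl3 and Tfap2a without bulk replicate 2 (-0.02 and 0.08), and for Tfap2a (0.13) with the trend not centred, or for Tfap2a (0.16) and Prdm1 (0.02) when the block was added. Of the other genes named, Dsg1b, Tgm3, Zeb2 and Msx2 lost their call without at least 1 library (9 losses over 4 of the 5 fits that leave out a library). Over all alternatives 46 list counts moved, either by over 1.5 times or to or from 0. The precision is limited by having 2 bulk libraries; every library has at least 56829330 counts.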
